A study of Mus musculus with 27 samples.

Results

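The 648 sites at which Nkx2.2 bound most strongly, of 6473 final sites, were examined in MIN6 cells, which derive from a mouse insulinoma and serve as a model of beta cells. They were chosen by binding strength: a site was included where the mean of its CPM value on the log2 scale (reads scaled to library size) in the 2 Nkx2.2 chromatin immunoprecipitation (ChIP-seq) replicates reached the 90th percentile of all final sites. The authors had also listed 10749 binding events, of which the 6473 final sites are a subset. The binding values chose the sites, so they are given here as a description and carry no test.

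Nkx2.2 is a homeodomain transcription factor of the NK2 class that is needed for the formation and identity of pancreatic beta cells and that also patterns the ventral neural tube. The SD domain is a conserved stretch of NK2-class proteins outside the homeodomain. RFX factors bind DNA through a winged-helix domain at paired or single half-sites, and the family member Rfx6 acts in islet development and in mature beta cells.

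Genes joined to these sites were followed in RNA sequencing of mouse tissue and cells. Islets of 8-week animals gave 2 control libraries and 3 libraries with the SD-domain mutation in beta cells (betaSDmut), and islets of 4-week animals gave 2 control libraries and 2 labelled as a beta-cell knockout of Nkx2.2 (betaKO). The labels call the molecule of the 4-week samples genomic DNA, but their columns hold counts per gene in the same table as the other islets, and they were used as RNA. Whole pancreata at E15.5 gave 3 control libraries and 4 with the SD-domain mutation (SDmut). Motor neuron progenitors at day 4 of differentiation from mouse embryonic stem cells were of 2 inducible lines: wildtype Nkx2.2 (iNkx2.2, 3 libraries) or the SD mutant (iSDmut, 2 libraries), each induced with doxycycline at 1 µg/ml, while 3 libraries of the iNkx2.2 line without doxycycline were the controls (pMN). The Cre driver behind the beta-cell alleles is not given in the sources used here. Nothing states whether libraries of a group came from separate animals or cultures, so p-values measure the spread between these libraries.

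The sequences of 8 of the 648 sites are shown because they hold the motifs on which the site results turn, or none of them. Each runs 30 bases to each side of the site on the plus strand of GRCm38.p6 (RefSeq), with motif matches on either strand in capitals. GTTGC, or GCAAC on the other strand, is the core of an RFX half-site. TNAAGTG and TNGAGTG, with their complements, are the 2 forms of the NK2 core that were searched.
Pcgf5: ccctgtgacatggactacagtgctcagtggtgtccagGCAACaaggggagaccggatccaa
Sec31a: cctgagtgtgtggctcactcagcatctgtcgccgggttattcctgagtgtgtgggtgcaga
B3galt5: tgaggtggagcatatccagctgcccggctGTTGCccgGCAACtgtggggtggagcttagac
Glp1r: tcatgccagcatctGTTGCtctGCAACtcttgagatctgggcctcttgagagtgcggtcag
Nkx6-1: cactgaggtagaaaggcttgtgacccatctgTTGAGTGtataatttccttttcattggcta
Abcc8: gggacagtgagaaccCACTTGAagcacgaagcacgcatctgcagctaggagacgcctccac
Snap25: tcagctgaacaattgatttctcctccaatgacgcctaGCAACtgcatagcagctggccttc
Iapp: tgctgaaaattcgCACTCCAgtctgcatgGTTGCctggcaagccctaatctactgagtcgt

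The Pcgf5 site, at chr19:36377913-36377973, was the strongest of all and lay in an intron, 1125 bp upstream of the nearest protein-coding start. The Sec31a site, at chr5:100378379-100378439, ranked 2 and held no match to either motif in the 61 bases shown. The B3galt5 site, at chr16:96244165-96244225, ranked 9, and the Glp1r site, at chr17:30885473-30885533 and outside protein-coding genes, ranked 16. Both of these hold 2 half-sites facing each other. The Nkx6-1 site lay at chr5:101432377-101432437, the Abcc8 site at chr7:46145999-46146059 and the Snap25 site at chr2:136716306-136716366. The Iapp site lay at chr6:142289512-142289572.

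The 648 sites had mean values of 8.06 to 10.77 log2 CPM with a median of 8.60, against a median of 6.73 for the other 5825 sites. Their read counts in 500 bp were 187 to 1340 in replicate 1, with a median of 305, and 140 to 1051 in replicate 2, with a median of 226. Together they held 30.1% of the reads counted at final sites in replicate 1 and 29.6% in replicate 2. At the boundary, the last site included, joined to Fam167a, had 206 and 160 counts, and the first one left out had 213 and 154, both at a mean of 8.06 log2 CPM. Of the 648 sites, 623 also reached the 90th percentile by replicate 1 alone, 623 by replicate 2 alone and 598 by both. The sorted values of the 2 replicate columns differed by at most 0.03 on the log2 scale, so the columns share a distribution and the replicate spread shows only the order of sites.

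The strongest sites had the RFX half-site at their centre more often than the others. Within 20 bp of the site, GTTGC was found at 371 of the 648 sites (57.3%) and at 33.5% of the others, while windows 2 kb away held it at 4.94% and 4.97%. The 2 longer forms, GTTGCCA and GTTGCTA, gave the same order: either was within 20 bp of 227 sites (35.0%), against 21.1% of the others, and over 100 bp on each side either was found at 254 sites (39.2%, 95% Wilson interval 35.5 to 43.0). With all final sites in 10 bins of near-equal size by strength, the share with GTTGC within 20 bp ran between 27.4% and 33.4% in the 6 weakest bins, then 36.9%, 36.9%, 45.6% and 57.3%. Among the 648 sites themselves the longer forms were found over 100 bp on each side at 41.4%, 48.1%, 38.3% and 29.0% in 4 equal bins of 162 sites from strongest to weakest, so the share did not fall steadily with strength. The short half-site, the longer form that ends in TA, the NK2 core with G and a longer paired form given below were added after the data were seen, and a match is a description of the letters only.

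**Figure D1:**
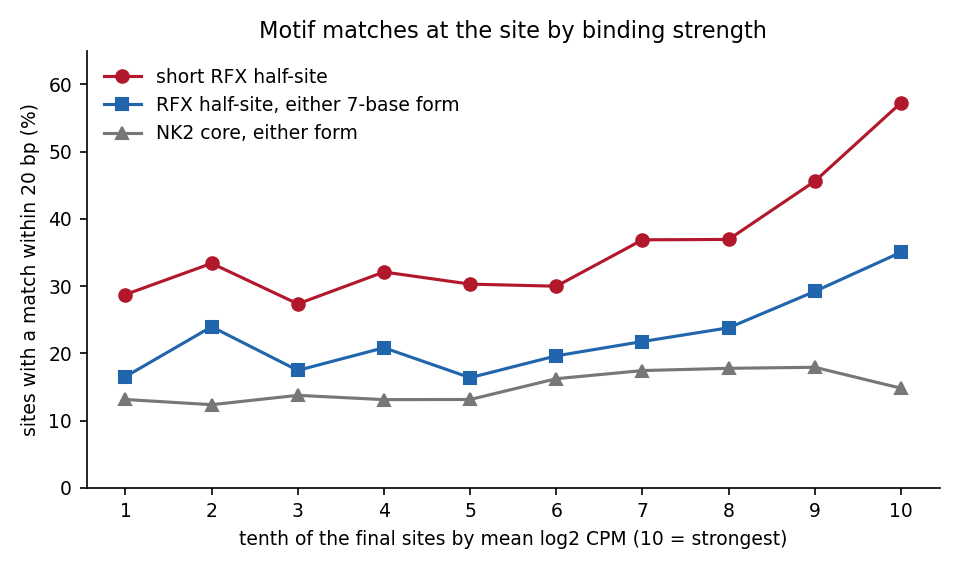
Share of final sites (y axis, percent) with a motif match within 20 bp, by bin of mean log2 CPM (x axis, 10 the strongest). The short RFX half-site rises to 57.3% in the strongest bin, and the NK2 core in either form stays between 12.4% and 17.9% throughout.

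The NK2 core did not follow binding strength in the same way. TNAAGTG was found in the 100 bp on each side at 91 of the 648 sites (14.0%), against 14.7% of the other sites and 11.6% of windows 2 kb away. TNGAGTG was found at 135 sites (20.8%), against 24.0% of the others and 8.49% of the distant windows. Within 20 bp, TNGAGTG was at 12.2% of both the strongest and the other sites, and at 2.24% of the windows 2 kb from the strongest. Either NK2 form was present at 209 sites, both an NK2 form and a longer RFX half-site at 67, and neither at 252.

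**Figure D2:**
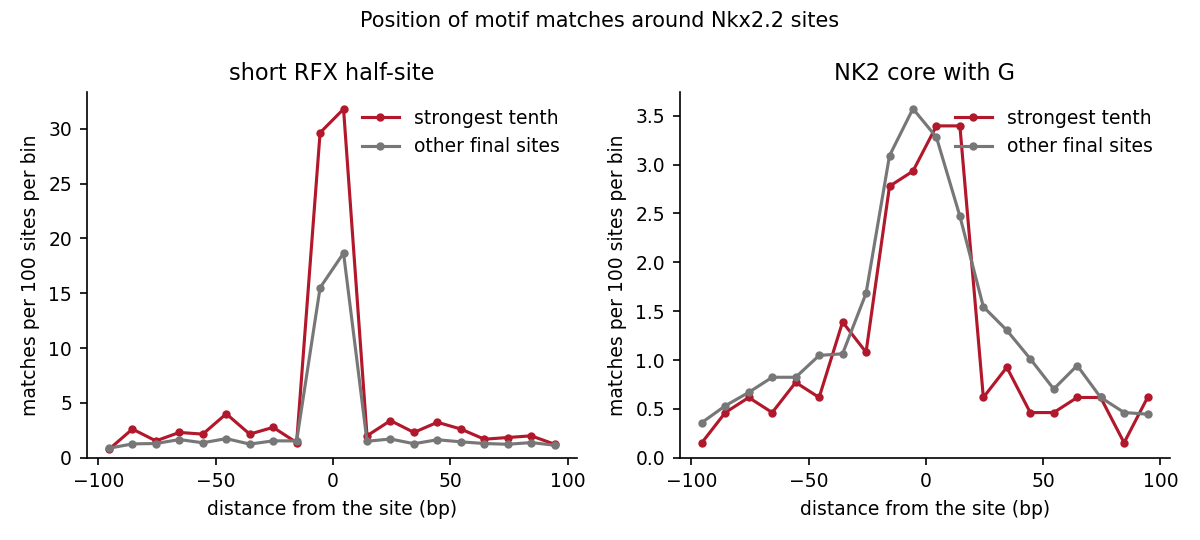
Matches per 100 sites in bins of 10 bp (y axis) against distance from the site (x axis, bp) for the short RFX half-site and the NK2 core with G. The RFX matches are concentrated in the central bins in both groups and are more frequent at the strongest sites, while the NK2 curves of the groups cross.

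Of the other motifs searched, the E-box of Neurod1 type, CAGATG, was at 30.1% of the strongest sites and 32.1% of the others, both above the 15.7% of windows 2 kb from the strongest. The Maf half-site TGCTGA was at 21.1% and 20.2%, AP-1 sites TGANTCA at 9.41% and 8.98%, and the homeodomain core TAATTA at 8.49% and 9.10%. The Fox motif TGTTTAC was at 6.33% and 7.64%, and the GC box GGGCGGG at 4.94% and 3.40%. A paired RFX form with fixed spacing and further fixed letters was at 10 of the 648 sites (1.54%) and at 1.41% of the others. It is narrower than the pairs shown for B3galt5 and Glp1r, neither of which matches it, so it does not count facing half-sites in general. The short half-site lies within both longer forms and the paired form, so these counts overlap.

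Most of the strongest sites lay away from promoters. Within 1 kb of a protein-coding start were 69 sites (10.6%), against 8.53% of the others and 10.8% of the next strongest bin. Introns held 300 sites, exons 36, and 312 were outside protein-coding genes. The median distance to a protein-coding start was 24866 bp, against 31186 bp for the others and 25240 bp in the next strongest bin. The median GC content over the 100 bp on each side was 48.8% for the strongest, 46.8% for the other sites and 48.3% in the next strongest bin. A further binding event lay within 1 kb of 26.4% of the strongest sites and 18.1% of the others. In the next 2 bins by strength the share was 31.7% and 28.0%, so it was not highest in the strongest. On chromosome 17 the strongest sites were 34 of 241 final sites (14.1%), the highest share of any chromosome. Dynlt1b and Tiam1 were each the nearest protein-coding start of 3 of the strongest sites, and Dynlt1b has near-identical gene copies between which reads may be split.

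The authors' deposited table joined islet genes to sites. It listed 412 of the 648 sites (63.6%) for 413 genes, and 36.8% of the other sites for 2181 genes. The table gave 1 site per gene, and where a gene had more than 1 candidate the listed site was the strongest for 796 of 861 genes, so strength entered the choice of listed sites. Its part in the higher share was not tested. That table also gave an Nkx6 position, whose source is not given in the sources used here, for 163 of the 412 sites (39.6%) and for 34.4% of the other joined sites. The joined gene was the nearest protein-coding start for 356 of the 412 sites. In control islets at 8 weeks the median level was 15.7 FPKM for the 409 of these genes with a value, 15.6 FPKM for the other joined genes and 14.6 FPKM for the genes of the islet table with no site.

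Before the gene results, the samples were checked. Nkx2-2 was at 103.8, 84.5 and 81.8 CPM in betaSDmut islets and at 102.3 and 88.4 CPM in their controls. The labels name a mutation there, so the level of the transcript does not check it. In the libraries labelled betaKO it was at 93.1 and 64.6 CPM, against 102.3 and 75.8 CPM in controls, so the count did not separate those groups. Whether the reads counted cover the deleted part is not given in the sources used here. Library totals were 12398041 to 32385406 in islets. The 19 acinar markers summed to 20328 and 55504 CPM in the betaKO libraries against 8030 and 14573 CPM in their controls. In betaSDmut they summed to 1381 to 14323 CPM, which overlapped the 10510 and 17338 CPM of its controls. The 3 delta-cell markers summed to 4933 to 6495 CPM in betaSDmut and 2072 to 3067 CPM in controls, and to 5133 to 6437 CPM in betaKO and 1875 to 3424 CPM in controls. The 7 beta-cell markers were lower in both mutants, at 201416 to 219051 CPM in betaSDmut against 235427 and 241234 CPM, and at 166840 and 179281 CPM in betaKO against 209676 and 213548 CPM. In betaKO the 5 alpha-cell markers were at 52403 and 64351 CPM against 25797 and 30205 CPM, and the 2 PP-cell markers at 8345 and 10879 CPM against 3470 and 3537 CPM. Without overlap, Schwann-cell and mesenchyme markers were also lower in betaSDmut and higher in betaKO, and skeletal muscle markers, under 4 CPM in every islet library, higher in betaSDmut. Duct markers were higher and endothelial markers lower in betaKO. The part of these marker levels in the results was not tested. In bulk samples fewer cells of a type and less RNA per cell cannot be told apart.

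At 8 weeks, 79 of the 413 genes joined to one of the strongest sites were called by edgeR's quasi-likelihood test at an adjusted p under 0.05, 52 higher and 27 lower in betaSDmut. This is 19.1%, against 7.94% of the 15413 genes tested, 14.6% of the other joined genes and 7.65% of the islet-table genes with no site. The median log2 fold change was 0.08 for the 413 genes and 0.01 for all genes, and the median absolute change 0.24 and 0.21. Genes joined to the next strongest bin of sites were called at 21.2%, so the share was not highest in the strongest. Called genes made up 19 of 132 with a longer RFX half-site within 20 bp of the site, 60 of 281 without one, and 29 of 135 with an NK2 core in either form. The count fell to 4 when either control was left out, the lone control then being assumed to vary like the other libraries, was 27 without betaSDmut library 2 and rose to 148 without betaSDmut library 1. DESeq2 called 137, and 13.2% of all genes tested.

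**Figure D3:**
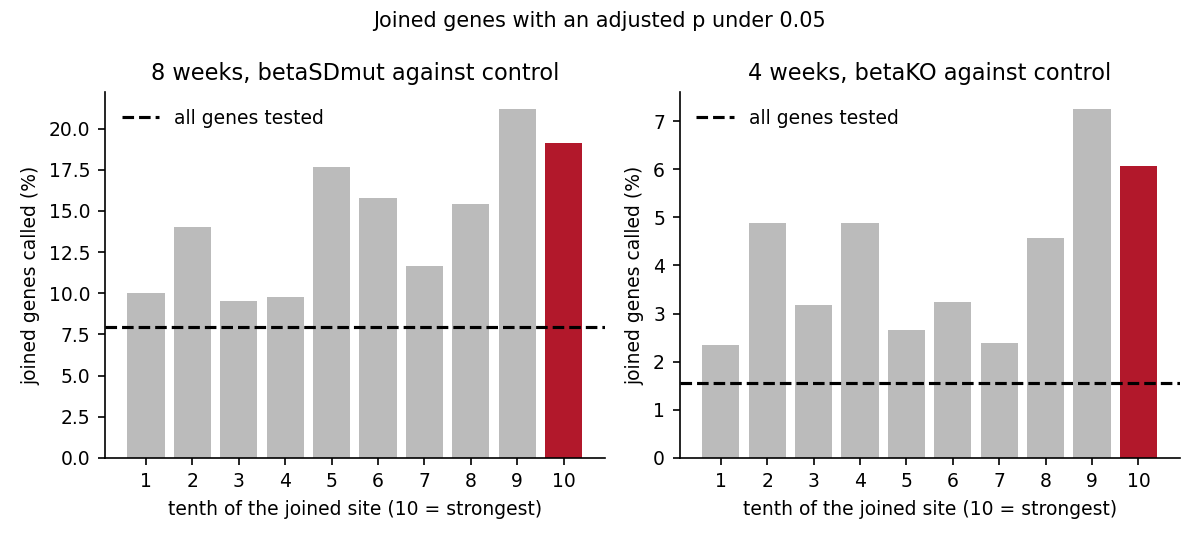
Share of joined genes with an adjusted p under 0.05 (y axis, percent) by bin of the strength of the joined site (x axis, 10 the strongest, in red), with the share of all genes tested as a dashed line. The strongest bin stands at 19.1% at 8 weeks and 6.07% at 4 weeks, and the next bin stands higher in both.

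Genes of hormone secretion were among the joined genes. The glucose-sensing and secretion list had 8 of its 40 genes joined to one of the strongest sites, of which 3 fell and 2 rose at 8 weeks, against 7 and 4 in the whole list. Glp1r, the receptor of glucagon-like peptide 1, was at 296 and 364 CPM in controls and at 169, 136 and 126 CPM in betaSDmut, and these did not overlap. Its log2 fold change was -1.20 ± 0.15 (SE), with an edgeR adjusted p of 0.0115. Chga, which encodes the granule protein chromogranin A, was at 12541 and 14541 CPM in controls and at 6543, 5976 and 6035 CPM in betaSDmut, with a log2 fold change of -1.13 ± 0.11 (edgeR adjusted p = 0.00629). Robo2, a receptor for Slit guidance cues, fell by 0.69 on the log2 scale, from 201 and 205 CPM to 137, 114 and 127 CPM. In the other direction, Scg2, which encodes the granule protein secretogranin II, was at 6219 and 6292 CPM in controls and at 12300, 17034 and 16236 CPM in betaSDmut. Snap25, a SNARE protein of granule fusion, rose by 0.37 on the log2 scale. The sites of Snap25 and Scg2 lay 2858 bp and 248778 bp downstream of a protein-coding start. Those of Glp1r, Chga and Robo2 lay 16314 bp, 22214 bp and 472996 bp upstream of one. The Kcnj11 site lay in an intron, with the Abcc8 start nearest. Kcnj11 and Abcc8, the 2 subunits of the ATP-sensitive potassium channel, had log2 fold changes of 0.04 and 0.08, and Ptprn2, a granule membrane protein, had 0.03; none of the 3 was called.

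Of the 30 islet transcription factors listed, 5 were joined to one of the strongest sites and 1 was called. Nkx6-1, a homeodomain factor of beta cells, fell from 205 and 216 CPM to 132, 108 and 97.2 CPM, a log2 fold change of -0.91 ± 0.13 (edgeR adjusted p = 0.0174). Of those not called, log2 fold changes were -0.32 for Tox3, 0.04 for Myt1 and 0.32 for Rfx6. The Rfx6 site lay 9 bp from a protein-coding start, and the Nkx6-1 site 232589 bp downstream of the Nkx6-1 start. The hormone genes Pyy and Iapp had log2 fold changes of 0.21 and 0.63 and were not called, as with all 11 genes of that list. Ldha, lactate dehydrogenase A, which beta cells normally keep low, was the 1 gene of its list of 14 with such a site. It rose from 9.34 and 11.6 CPM to 155, 197 and 208 CPM, a log2 fold change of 4.15 ± 0.19 (edgeR adjusted p = 0.000868). Of the 14 names in that list 13 were tested and 3 called, 2 higher and 1 lower. The other that rose was Aldh1a3, with no site listed and named after its values were seen. Its log2 fold change was 4.13 ± 0.46 (edgeR adjusted p = 0.0094).

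The largest increases after Ldha were of Wnt9a, Slc1a1, Higd1a and Bdnf. These are among called genes joined to one of the strongest sites, at a mean log2 CPM of 2 or more. Wnt9a, a Wnt ligand, was at 1.27 and 1.34 CPM in controls and at 18.0, 17.8 and 18.1 CPM in betaSDmut. Higd1a, a mitochondrial protein induced by low oxygen, was at 10.5 and 10.7 CPM against 77.3, 79.8 and 77.3 CPM, with a log2 fold change of 2.88 ± 0.07 (edgeR adjusted p = 0.000278). Slc1a1, a glutamate transporter, was at 1.23 and 2.33 CPM against 10.4, 17.4 and 17.2 CPM. Bdnf, a neurotrophin, was at 1.75 and 1.81 CPM against 8.99, 12.4 and 11.3 CPM. The rule that chose the largest changes required groups that do not overlap. The largest decreases besides Glp1r and Chga were of the gene Cpm, which encodes a carboxypeptidase, with a log2 fold change of -1.26, Spock1, a matrix proteoglycan, with -1.25, and Pvrl1, the older symbol of Nectin1, an adhesion protein, with -1.11. Ldha, Wnt9a, Higd1a and Spock1 were called in all 9 refits with another tool, scaling, filter or block or with a library left out. Other genes that the naming rule selects lost the 8-week call in at least 2 of them, though none changed sign. Amy2a5, an acinar amylase gene joined to one of the strongest sites, ranged from 453 to 6427 CPM across the 8-week libraries and was not called. The authors' deposited table called 131 of the 413 genes at 8 weeks, or 31.7%, against 17.9% of all genes of that table, and 68 of the 131 were called here.

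At 4 weeks, 25 of 412 genes joined to one of the strongest sites were called, 12 higher and 13 lower in the libraries labelled betaKO. This is 6.07%, against 1.56% of the 14942 genes tested, 4.13% of the other joined genes and 1.26% of the islet-table genes with no site. The median log2 fold change was -0.01, and 0.00 for all genes. Leaving out either control left 0 called, and leaving out betaKO library 2 left 9, while DESeq2 called 63, and 5.15% of all genes. The authors' deposited table called 42 of the 413 genes, or 10.2%, against 4.47% of all genes of that table, and 17 of the 42 were called here. At an unadjusted p under 0.05, edgeR gave 126 of the 412 genes, or 30.6%, against 15.2% of all genes.

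Glp1r fell in these islets too, from 193 and 182 CPM to 98.2 and 96.1 CPM, a log2 fold change of -0.95 ± 0.08 (edgeR adjusted p = 0.0224). Mlxipl, which encodes the glucose-responsive factor ChREBP, fell from 167 and 173 CPM to 55.7 and 68.3 CPM, with a log2 fold change of -1.45 ± 0.12 (edgeR adjusted p = 0.0224). Grin2c, an NMDA receptor subunit, was at 12.4 and 20.5 CPM in controls and at 4.32 and 3.56 CPM in betaKO. The other large decreases were of Olfm4, a secreted glycoprotein, with a log2 fold change of -1.72, Trpm2, a cation channel, with -1.34, and Tmem150c, with -0.98. By the same limits, the largest increases were of Bdnf and Higd1a, with log2 fold changes of 1.99 and 1.91, and of Stxbp5l, of the tomosyn family of syntaxin-binding proteins, from 35.6 and 32.5 CPM to 103 and 123 CPM. Slc38a5, an amino acid transporter, and Neurl1a, a ubiquitin ligase, had log2 fold changes of 1.18 and 1.15. Ldha was at 19.99 and 10.9 CPM in controls and at 16.6 and 91.9 CPM in betaKO, so its groups overlapped and it was not called. None of the listed hormone or transcription factor genes with one of the strongest sites was called, and Nkx6-1 had a log2 fold change of -1.14 ± 0.27 (edgeR adjusted p = 0.182). In the whole hormone list 5 of 11 genes were called, 4 higher and 1 lower. Pyy and Iapp, the 2 with such a site, had log2 fold changes of 1.36 and 0.33 (edgeR adjusted p = 0.0722 and 0.306). Each gene that the naming rule selects and that was called at 4 weeks lost the call in at least 2 of 8 refits. None changed sign.

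**Figure D4:**
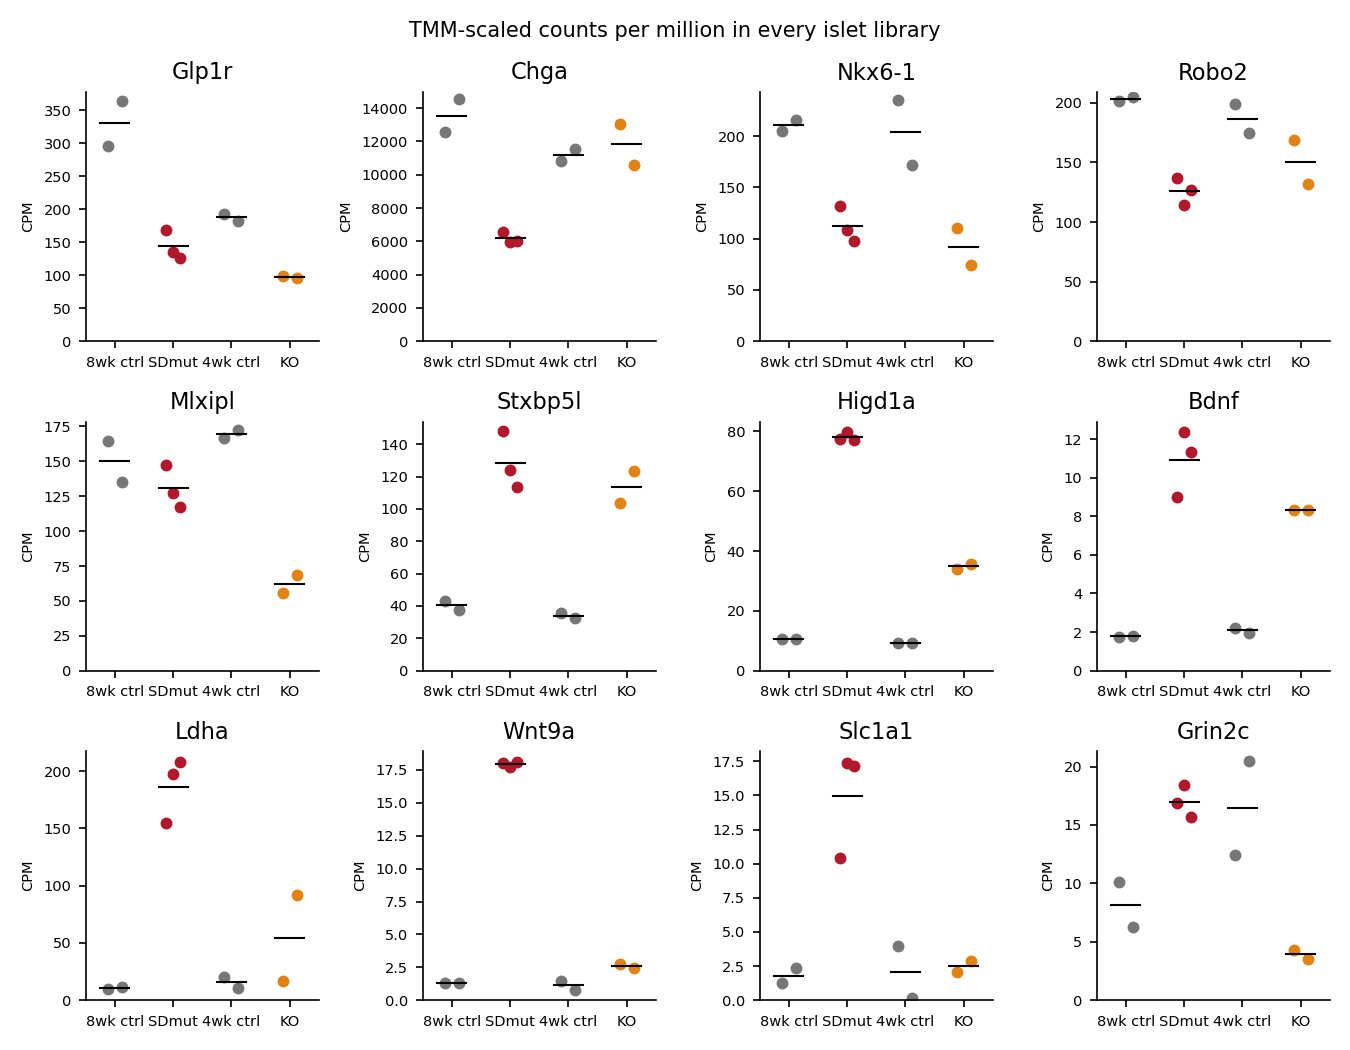
TMM-scaled CPM (counts scaled to library size; y axes, each from 0) of 12 genes joined to one of the strongest sites in every islet library: 8-week control, 8-week betaSDmut, 4-week control and 4-week betaKO, with bars at group means. Higd1a, Bdnf and Stxbp5l are higher and Glp1r lower in both mutants, Ldha is high in 1 of the 2 betaKO libraries, and Grin2c moves in opposite directions.

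The islet comparisons shared no libraries. Of the 412 genes tested in both, 12 were called in both, which is 15.2% of the 79 called at 8 weeks and 48.0% of the 25 called at 4 weeks, and 11 of the 12 had the same sign. The overlap was not counted over all genes, so it cannot be read as particular to genes of the strongest sites. These 11 were Glp1r, Idh2, Lrrn1, Il6st and Sez6l, all lower, and Top2b, Tmtc1, Stxbp5l, Fam167a, Bdnf and Higd1a, all higher. Grin2c was the exception, with log2 fold changes of 1.06 at 8 weeks and -2.05 at 4 weeks. Those of the 12 outside the lists and the largest changes are named after their values were seen, and their refits were not counted. The 2 mutants also differed in age, so allele and age cannot be told apart.

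The difference of the islet effects was tested directly over all 9 islet libraries, and 17 of the 413 genes were called (4.12%), against 1.21% of the 15995 genes tested. Of these, 13 had a larger coefficient in betaSDmut and 4 a larger one in betaKO. Leaving out control library 2 of 8 weeks left 0 called and control library 1 left 1, while 28 were called without betaSDmut library 1. Without betaSDmut library 2 the count was 4, without betaKO library 2 it was 5, and without either 4-week control it was 7. DESeq2 called 45, and 4.06% of all genes. The named genes called here were Grin2c, with a difference of 3.11 on the log2 scale, Wnt9a with 2.62, Mlxipl with 1.26, Higd1a with 0.97, Tmem150c with 0.87 and Chga with -1.20. Ldha differed by 2.37 ± 1.02 (SE) and was not called (edgeR adjusted p = 0.385).

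**Figure D5:**
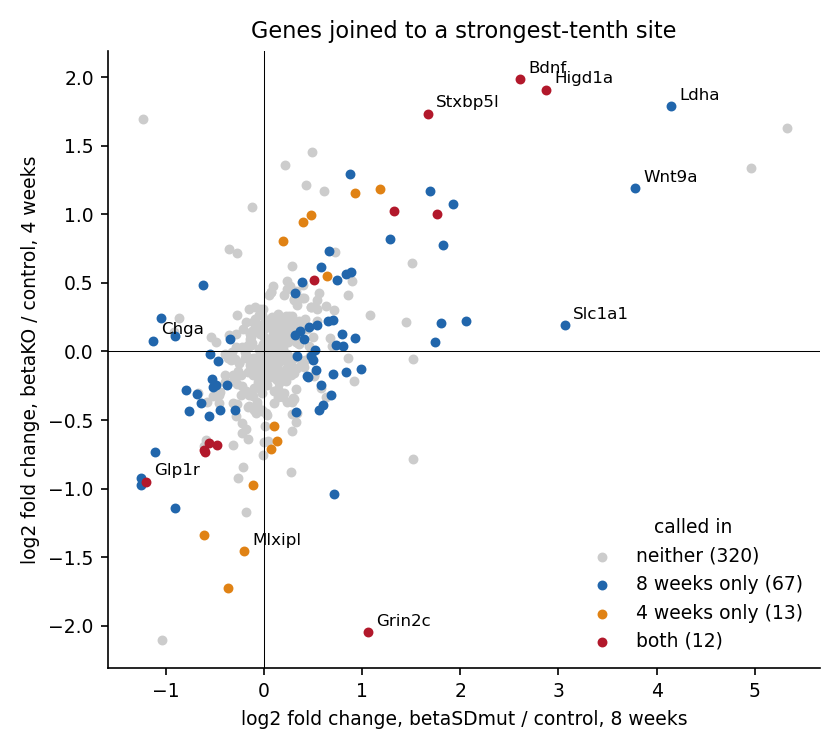
Log2 fold change at 4 weeks (betaKO against control, y axis) against that at 8 weeks (betaSDmut against control, x axis) for the 412 genes joined to one of the strongest sites and tested in both, coloured by where they were called. The 12 genes called in both lie in the lower left or upper right, except Grin2c at the lower right.

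In whole pancreas at E15.5, edgeR called 0 of 408 genes joined to one of the strongest sites, against 0.00534% of the 18723 genes tested, which is 1 gene. At an unadjusted p under 0.05 there were 23 of the 408, or 5.64%, against 2.54% of all genes. DESeq2 called 3, all lower in SDmut, and 0.134% of all genes. The sample titles carry a number whose meaning is not given in the sources used here. Controls and SDmut libraries share it, except SDmut library 4, whose number no control has. With that number as a block, an alternative chosen after seeing the data, edgeR called 0 of the 408 genes and 0.0% of all genes. In that fit SDmut library 4 adds nothing to the comparison. Glp1r was at 8.00, 6.24 and 3.71 CPM in controls and at 0.568, 0.616, 0.515 and 1.08 CPM in SDmut, which did not overlap, with a log2 fold change of -3.10 ± 0.38 (edgeR adjusted p = 0.263, DESeq2 adjusted p = 5.68e-11). Chga was at 279, 152 and 131 CPM against 64.99, 49.98, 87.6 and 70.2 CPM (edgeR adjusted p = 1.000, DESeq2 adjusted p = 0.00249). Papss2, an enzyme of sulfate activation named after its values were seen, was at 35.3, 26.7 and 51.9 CPM against 20.1, 18.4, 16.4 and 13.6 CPM. The 7 beta-cell markers summed to 290 to 814 CPM in controls and 54.7 to 107 CPM in SDmut. The skeletal muscle markers reached 3892 CPM in 1 control and 3783 CPM in 1 SDmut library. The part of these in the gene values was not tested.

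In motor neuron progenitors, where wildtype Nkx2.2 was induced, 58 of 393 genes joined to one of the strongest sites in MIN6 cells were called, 28 higher and 30 lower in iNkx2.2 than in pMN. This is 14.8%, against 9.49% of the 15653 genes tested and 10.3% of the other joined genes. Same-numbered libraries of these groups deviated together, with correlations of their deviations of 0.56, 0.55 and 0.58 for replicates 1, 2 and 3. Per the titles, replicates 1 and 2 of both groups shared a sequencing lane, and replicate 3 of both came from another. With the replicate number as a block, 145 of the 393 genes were called (36.9%), against 29.6% of all genes. Leaving out 1 library gave 17 to 49 calls, the lowest without iNkx2.2 library 1, with 19 without pMN library 1, 30 without pMN library 2, 32 without iNkx2.2 library 3 and 36 without iNkx2.2 library 2. With the SD mutant, 13 of the 393 genes were called against the same pMN libraries, 7 higher and 6 lower, or 3.31% against 3.54% of the genes tested. This count depended on the fit. With the replicate block, 92 were called (23.4%), against 16.8% of all genes, and DESeq2 called 45 (11.5%), against 8.87%. Same-numbered pMN and iSDmut libraries had deviation correlations of 0.38 and 0.05, and pMN library 3 had 0.28 with iSDmut library 2. The replicate numbers are thus less clearly a pairing there. Without pMN library 1 the count was 4. The 2 comparisons share their controls, which were the iNkx2.2 line without doxycycline. In iSDmut the line, doxycycline and the induced mutant therefore cannot be told apart. In iNkx2.2, doxycycline and the induced factor cannot be told apart. Per the titles, iSDmut library 1 shared a lane with pMN libraries 1 and 2, and iSDmut library 2 came from a lane with no pMN library. Nkx2-2 itself was at 345 to 385 CPM in iNkx2.2, 246 and 247 CPM in iSDmut and 5.21 to 11.4 CPM in pMN.

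Of the 29 genes that the naming rule selects and that were tested in progenitors, 10 were called with iNkx2.2, 6 higher and 4 lower, and 2 with iSDmut. Of all genes tested, 9.49% were called with iNkx2.2 and 3.54% with iSDmut. With the replicate block, 16 of the 29 were called with iNkx2.2, 11 higher and 5 lower, against 29.6% of all genes. The 29 were picked from lists, by their islet changes or by nearby sites, so these counts carry no test. Stxbp5l, which rose in both islet comparisons, was at 1.39, 1.76 and 1.10 CPM in pMN, at 11.1, 8.15 and 9.32 CPM in iNkx2.2 and at 5.32 and 5.65 CPM in iSDmut. Its log2 fold changes against pMN were 2.76 ± 0.25 and 1.96 ± 0.26 (edgeR adjusted p = 0.000347 and 0.00635). Abcc8 was at 0.612, 0.667 and 0.762 CPM in pMN, at 4.63, 2.15 and 3.28 CPM in iNkx2.2 and at 0.560 and 0.956 CPM in iSDmut. Higd1a, which rose in both islet comparisons, was at 73.1, 74.7 and 57.3 CPM in pMN and at 42.3, 53.9 and 34.9 CPM in iNkx2.2, a fall of 0.65 on the log2 scale (edgeR adjusted p = 0.0380). Mlxipl, which fell in betaKO islets, had a log2 fold change of 1.30 with iNkx2.2 (edgeR adjusted p = 0.0310) and 0.45 with iSDmut. Dynlt1b was the other gene called with both transgenes, with log2 fold changes of 0.59 and 0.70.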

How the data were processed

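Sites and gene lists were chosen with earlier results of these data known. The authors deposited raw counts per gene, counts in 500 bp at binding events, log2 CPM values of the final sites and FPKM values, and a call column coded as a score, in tables without stated counting rules. The submitters' processing notes name STAR, Cufflinks, DESeq2, edgeR 3.20.9, limma 3.34.9, bedtools 2.17.0 and the build mm10, and which tool made which file is not given in the sources used here. Log2 fold changes in the authors' deposited table were used only for the site-gene join and calls. 1 column of per-sample values was not used, and neither was the input library. The 2 log2 CPM columns hold nearly the same sorted values, and the step that made them so is not given in the sources used here.

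Motifs were searched on both strands of GRCm38.p6, 100 bp to each side, with Python 3.11.15 and pysam 0.24.0, and starts came from GENCODE vM21. In R 4.3.3, edgeR 4.0.16 was fitted to the gene counts with filterByExpr, TMM scaling and its quasi-likelihood test, and p-values were adjusted by Benjamini-Hochberg with a threshold of 0.05. Standard errors are the absolute log2 fold change over the square root of F. Each islet age and E15.5 was fitted alone, the difference over all islet libraries, and progenitors in 1 model of 3 groups. DESeq2 1.42.0 was an alternative. All 413 joined symbols matched the islet table, 410 the E15.5 table and 408 the progenitor table. Scripts were tested on simulated counts.

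Named genes were list genes joined to a strongest site, the 5 largest called changes in each direction per islet comparison (groups not overlapping, mean log2 CPM 2 or more), and genes nearest to 3 or more sites. A gene that this rule selects is not reported here. Same-numbered pMN and iNkx2.2 libraries, numbered in their titles, had deviation correlations of 0.56, 0.55 and 0.58. For pMN and iSDmut they were 0.38 and 0.05. The main fits held no block, so their calls and p-values are unpaired. Pairing entered only in the refits with the replicate number as a block. Wilson intervals are at 95% and cover counting error only.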

Additional observations from a re-analysis of the deposited data

Results flagged for a closer look

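In E15.5 SDmut pancreas, 1 library stood apart from the other 3 for 2 of 33 named genes, where chance gives about 1 in 20. Olfm4 was at 17.9 CPM in library 1 and at 2.46, 3.63 and 1.53 CPM in the others. Snap25 was at 7.27 CPM in library 2 and at 3.33, 3.97 and 3.98 CPM in the others. Neither gene was called at E15.5.

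The betaSDmut effect at 8 weeks and the betaKO effect at 4 weeks differed, by an edgeR test of the difference itself, for 6 of 33 named genes. The same test called 4.12% of the 413 genes and 1.21% of all genes tested. All 6 were among the largest called changes of at least 1 of these comparisons. The naming rule thus used the same values, and the count of 6 carries no test. The differences on the log2 scale, betaSDmut minus betaKO, were -1.20 for Chga, 1.26 for Mlxipl, 0.97 for Higd1a, 0.87 for Tmem150c, 2.62 for Wnt9a and 3.11 for Grin2c. Allele and age cannot be told apart in them.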

How the results depend on the processing

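The site results changed with the window and with the gene set. The share with TNAAGTG was 14.0%, and 6.48% with 50 bp on each side, 25.2% with 200 bp and 10.2% with fewer letter choices. Without a ChIP replicate it was 13.6 to 14.5%. The share near a start was 22.2% within 5 kb and 15.1% with all annotated genes, and 10.3 to 10.7% without a replicate. The joined share was 59.3% at the 80th percentile and 62.5 to 63.2% without a replicate. The longer RFX half-sites, an alternative added after seeing the data, were at 44.8% at the 95th percentile and at 36.3% at the 80th. Merging overlapping sites could change nothing, since no final sites overlap.

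Counts of called genes moved with the tool, the library left out and the block. DESeq2 gave 137 at 8 weeks, 63 at 4 weeks, 45 for the difference, 3 at E15.5 and 45 for iSDmut. With an absolute log2 fold change of at least 1 they were 22, 11, 8, 21 for iNkx2.2 and 6 for iSDmut. Without 1 library they ranged from 4 to 148 at 8 weeks, 0 to 18 at 4 weeks, 0 to 28 for the difference, 17 to 49 for iNkx2.2, 4 to 13 for iSDmut, and 0 in each case at E15.5. The cause was not tested. With the replicate number as a block the counts were 145 for iNkx2.2 and 92 for iSDmut, 9 for the difference, 61 at 8 weeks and 24 at 4 weeks. Islet samples share only a number. The share of all genes was not counted with the fold limit, without 1 library or with the islet blocks. Those counts cannot be read as particular to genes of the strongest sites. Per the titles, iSDmut library 1 also shared a lane with pMN libraries 1 and 2, while iSDmut library 2 shared none with pMN. At E15.5 a block by the number shared in the titles, added after seeing the data, gave 0. RLE scaling, the looser filter, the nearest start within 100 kb and ranking by 1 ChIP replicate kept each count within 1.5 times. Of 232 refits of 27 named gene results, 161 kept the call, 71 lost it and 0 changed sign. With 2 controls per islet age, the number of libraries limits the precision.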
